A study of Homo sapiens with 6 samples.

Results

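Heat shock proteins and the cochaperones that work with them were examined as a set of 43 genes, taken by name: 2 heat shock factors, 10 genes of the HSP70 family, 3 of the HSP110 family, 4 small heat shock proteins, 2 subunits of the mitochondrial chaperonin, 3 genes of the HSP90 family, 11 J-domain (DNAJ) proteins, 3 BAG proteins and 5 HSP90 cochaperones. All 43 were among the 19977 genes of the count files, 42 by their GENCODE 44 symbol and HSPB11 under its newer symbol, IFT25. They were listed by name and family, with earlier results of these data known. The cells were wild type NCRM-1, a human induced pluripotent stem cell (hiPSC) line, seeded as single cells in vertical wheel bioreactors of E8 medium and grown as aggregates for 4 days, with 50% of the medium replaced on day 2. PEG and HS stands for E8 with 10 mg/ml polyethylene glycol and 0.1 µg/ml heparin sodium salt (3 libraries), and E8 control for E8 without them (3 libraries). The question asked of the RNA-seq was how these additives change the transcripts of cells whose aggregates they are meant to stabilise.

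In the labels, the protocol text names PEG and heparin even for the E8 control libraries, and groups were therefore assigned by each library's own treatment entry. The labels read as a single bioreactor for each medium. The medium and the vessel therefore cannot be told apart, and p-values measure only the spread between these libraries, which may be technical. Depth was 26991279 to 36185138 counts per library. Counts were scaled to counts per 1000000 (CPM) with TMM factors, which correct for differences in library composition, and all values are mean ± SD over n = 3 unless stated. A gene was called higher or lower where edgeR's quasi-likelihood test gave a Benjamini-Hochberg adjusted p under 0.05 over the 16505 genes tested, those with a total of at least 10 counts. Fold changes are PEG and HS over E8 control.

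Heat shock proteins are molecular chaperones, which hold, fold or refold other proteins. HSP70 binds short hydrophobic stretches in a cycle driven by ATP, J-domain proteins deliver clients and trigger hydrolysis of that ATP, and HSP110 and BAG proteins exchange the nucleotide. HSP90 takes clients over from HSP70 with the help of its own cochaperones, and heat shock factor 1 raises the transcription of many of these genes when unfolded proteins accumulate. Pluripotent stem cells are known for high levels of chaperones in the absence of stress.

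In PEG and HS, 21 of the 43 genes were higher and 3 were lower, so that 24 (55.8%) passed the test, beside 25.3% of all genes tested. Over all genes the share was 12.2% higher and 13.1% lower. The higher genes included every listed gene of the HSP90 family, of the mitochondrial chaperonin and of the HSP90 cochaperones. Their rises were small, from 0.09 (HSPA9) to 0.31 (CHORDC1) on the log2 scale, or 6.68% to 24.1%. The 3 lower genes, HSPB8, HSPA2 and HSPA12A, differed by more, from -0.34 to -0.64. Tested against a 1.2-fold change with edgeR (glmTreat), 0 of the 21 rises passed (2 at an unadjusted p under 0.05), HSPB8 and HSPA2 still passed as lower, and HSPA12A did not (adjusted p = 0.409). The median log2 fold change was 0.10 over the 43 genes and 0.003 over all genes.

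The 43 genes together reached 15348, 15106 and 15744 CPM with PEG and HS against 13855, 13948 and 14138 for E8 control. The sum was therefore above every E8 control library in each PEG and HS library, at 1.10 times its mean there. These genes took between 1.52% and 1.57% of all counts with PEG and HS, against 1.38% to 1.41% for E8 control. The 5 most counted genes made up 67.6% of the sum, led by HSP90AB1 (22.1%), HSP90AA1 (16.9%) and HSPA8 (16.5%), so the sum mostly follows a few abundant chaperones. In bulk RNA, fewer cells with a transcript and less of it per cell cannot be told apart.

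**Figure D1:**
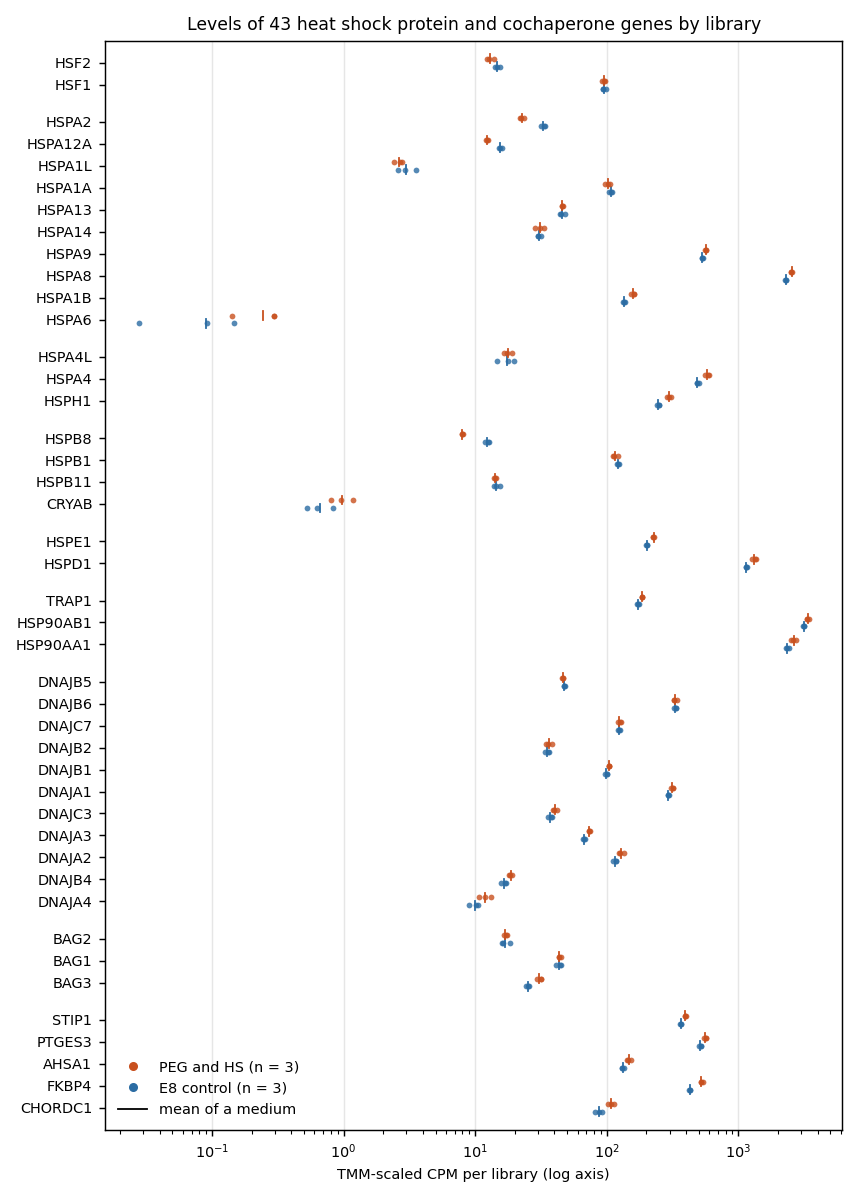
Each point is one library's TMM-scaled CPM (log axis) for one of the 43 genes, ordered by family, with a vertical tick at the mean of each medium. Levels span from under 1 CPM (HSPA6, CRYAB) to 3356 CPM (HSP90AB1), and the separations between the media are small beside this range.

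For 28 of the 43 genes (65.1%) the 3 libraries of one medium all lay on the same side of the other 3, 23 of them higher in PEG and HS and 5 lower, beside 39.3% of all genes. Besides the 24 called genes these were DNAJB1 and DNAJC3 (higher) and HSF2 and DNAJB5 (lower), which did not pass the test. Well-counted genes pass more often than others, and many of these genes are well counted. Of the 17 with 100 to 1000 CPM, 12 were called, beside 39.4% of all genes at that level. At 10 to 100 CPM, 8 of 19 were called, beside 30.2%. All 4 above 1000 CPM were called, beside 63.3%. None of the 3 genes under 10 CPM (HSPA1L, HSPA6 and CRYAB) was called, with adjusted p from 0.102 to 0.411 in the same test.

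**Figure D2:**
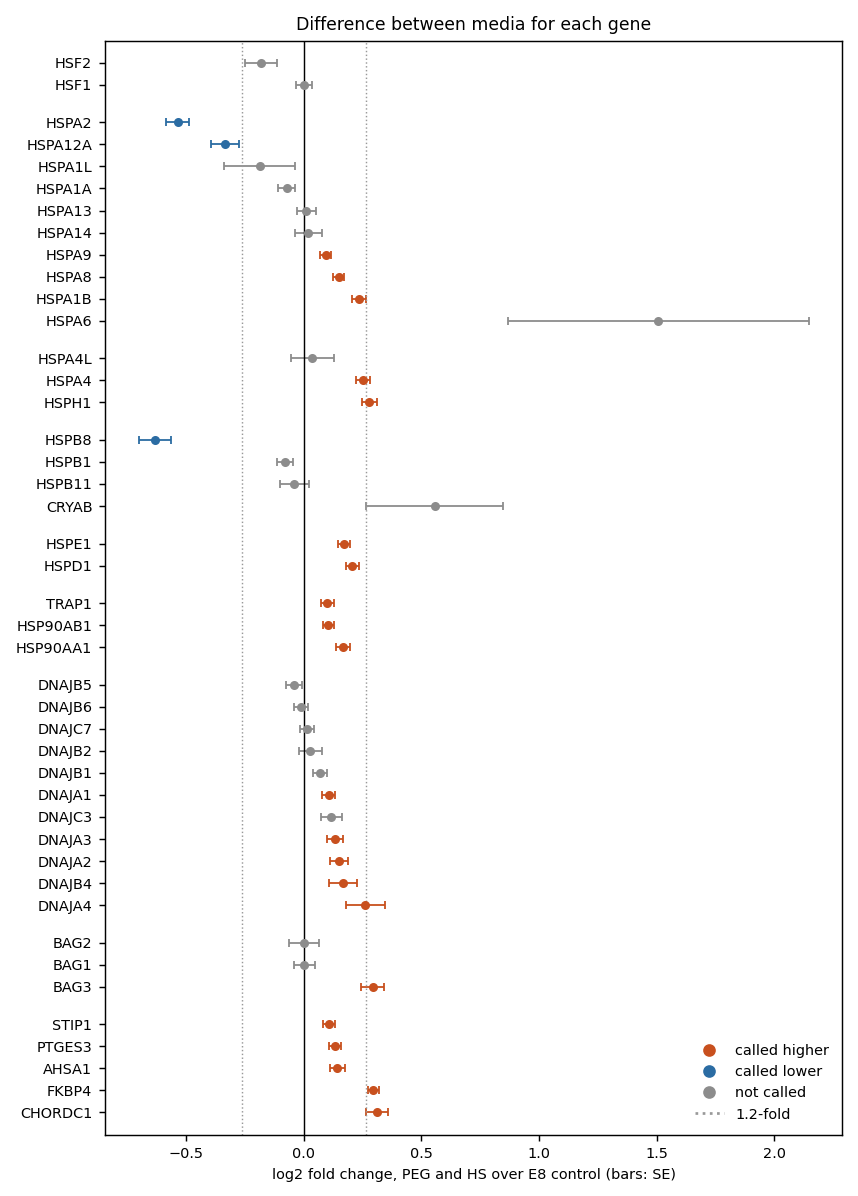
Points give the log2 fold change of each of the 43 genes, PEG and HS over E8 control, with bars of 1 SE from edgeR's fit and dotted lines at a 1.2-fold change. Called genes above 0 cluster between 0.09 and 0.31, while HSPB8 and HSPA2 lie well below the lower line.

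HSF1, the main transcription factor of the heat shock response, did not separate the media. It read 94.7, 97.5 and 92.7 CPM with PEG and HS against 97.9, 94.2 and 92.9 for E8 control. The libraries overlapped, the group means were 95.0 ± 2.42 and 95.0 ± 2.56 CPM, and the adjusted p was 0.998 (edgeR's quasi-likelihood test), with an SE of 0.033 on the log2 scale. HSF2, a related factor with roles in development, read 14.0, 12.6 and 12.3 CPM with PEG and HS against 14.5, 15.6 and 14.1 for E8 control. All 3 PEG and HS libraries were lower, yet by a narrow gap, with a log2 fold change of -0.18 ± 0.069 (SE) that did not pass the test (adjusted p = 0.0667, edgeR's quasi-likelihood test). Without PEG and HS replicate 1 the HSF2 difference passed (adjusted p = 0.0375). Transcript levels say nothing of the activity of these factors, which is set largely by their assembly and localisation.

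Heat shock factors bind inverted repeats of a short unit, read as GAA on one strand and TTC on the other, and 3 alternating units form the classic heat shock element. RefSeq promoter windows (GRCh38.p14, 250 bases before to 50 after a transcript start) were found for 39 of the 43 genes, 56 windows in all. Either TTCNNGAANNTTC or GAANNTTCNNGAA, searched on both strands, occurred in windows of 8 of these genes, beside 0.608% of the 27305 genes with a window. They were CHORDC1, HSP90AA1, HSP90AB1, HSPA8, HSPD1 and DNAJA1, which were called higher, and HSPA6 and DNAJB6, which were not called. The match of DNAJA1 begins after the transcript start, and those of the other genes before it. The shorter TTCNNGAA or GAANNTTC, which every longer match contains, occurred in 20 of the 39, beside 16.2% of genes. Of the 39 genes with a window 20 were called higher, and of the 20 with the shorter match 11 were. Whether the element goes with the calls was not tested. A match is a description of letters, and no binding was measured. Only exact matches were searched, so a window without one is not shown to lack an element.

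The 4 of these 8 genes with the largest absolute log2 fold change are printed 5′ to 3′ on the gene's strand with the matched units in capitals, to show how the repeat is built in genes that did and did not pass the test. HSPA6 is at chr1:161524446-161524498 (plus strand), in an intron of an unnamed gene on the same strand. It ranks first by a log2 fold change of 1.51 ± 0.64 (SE), which rests on 32 counts and was not called. CHORDC1 is at chr11:90223067-90223129 (minus strand), with its last 11 bases in the first exon. HSP90AA1 is at chr14:102087100-102087152 (minus strand), intronic to a longer HSP90AA1 transcript. HSPD1 is at chr2:197500063-197500090 (minus strand), in an untranslated exon of other HSPD1 transcripts, and is kept short.
HSPA6: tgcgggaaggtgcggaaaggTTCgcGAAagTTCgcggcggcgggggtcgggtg
CHORDC1: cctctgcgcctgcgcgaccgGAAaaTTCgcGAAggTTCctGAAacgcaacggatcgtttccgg
HSP90AA1: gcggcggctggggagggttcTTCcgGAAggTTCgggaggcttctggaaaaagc
HSPD1: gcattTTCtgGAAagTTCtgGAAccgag
The run of units is longest in CHORDC1, where 3 matches overlap, and HSPD1 holds 2 overlapping matches.

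**Figure D3:**
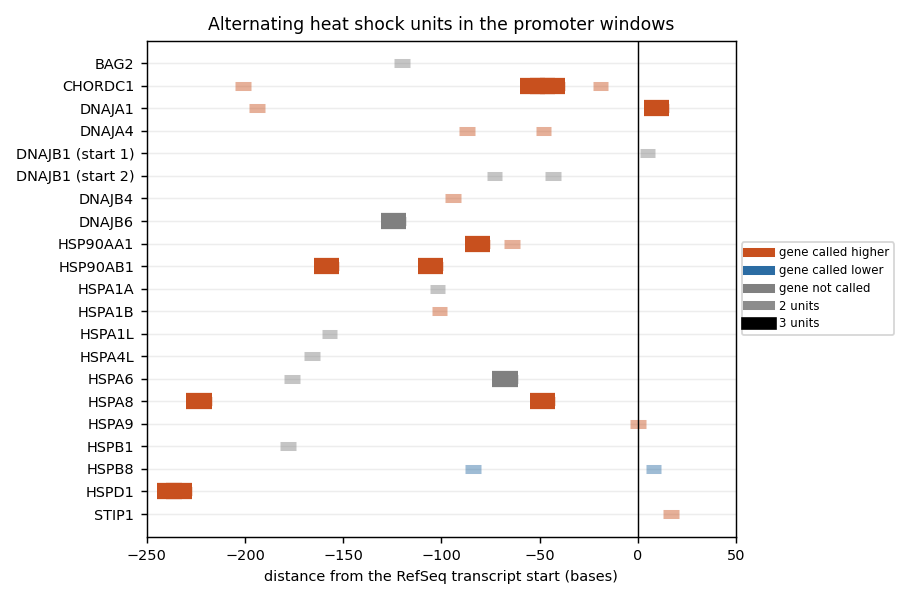
Marks show where alternating heat shock units lie in the promoter windows of the 20 genes with at least 1 match, as distance in bases from the RefSeq transcript start. Thick marks are matches of 3 units and thin marks of 2, coloured by whether the gene was called higher, called lower or not called, and the 3-unit matches belong to 8 genes, 6 of them called higher, beside 20 of all 39 genes with a window.

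Of the 10 HSP70 genes, 3 were higher (HSPA1B, HSPA8 and HSPA9), 2 were lower (HSPA2 and HSPA12A) and 5 did not pass. The share called was 50%, beside 25.3% of all genes. HSPA8, the constitutive HSP70 of the cytosol, read 2532, 2515 and 2575 CPM with PEG and HS against 2267, 2296 and 2317 for E8 control. Every PEG and HS library lay above every E8 control library, by 0.15 ± 0.023 (SE) on the log2 scale (adjusted p = 1.83e-04, edgeR's quasi-likelihood test). Of its transcript words 21.4% occur in other genes' transcripts, so part of its reads may be shared. HSPA9, the HSP70 of the mitochondrial matrix, was also higher, at 565 ± 6.13 against 529.6 ± 4.61 CPM (log2 fold change 0.09, adjusted p = 0.00999). Without E8 control replicate 1 the HSPA9 call was lost (adjusted p = 0.0544).

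HSPA2, an HSP70 best known from male germ cells and also present in other tissues (chr14:64535905-64546173), fell. It read 22.0, 22.3 and 23.6 CPM with PEG and HS against 31.5, 33.7 and 33.2 for E8 control. The media were far apart beside the spread of their libraries, with a log2 fold change of -0.54 ± 0.050 (SE), 1.45-fold lower (adjusted p = 1.06e-06, edgeR's quasi-likelihood test). HSPA12A, a distant relative of HSP70 whose gene spans chr10:116671192-116850251, read 12.4, 12.4 and 12.0 CPM with PEG and HS against 15.4, 15.9 and 15.2 for E8 control. It was 1.26-fold lower, with no overlap (log2 fold change -0.34 ± 0.060, adjusted p = 6.55e-04). An antisense gene overlaps each of these, HSPA2-AS1 and HSPA12A-AS1, and how strand was used in counting is not given in the sources used here.

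HSPA1A and HSPA1B encode the stress-inducible HSP70 in near-identical copies on chromosome 6 (chr6:31815543-31817946 and chr6:31827738-31830254). Of the 31-base words in their transcripts, 76.0% of HSPA1A's and 74.5% of HSPA1B's also occur in transcripts of other genes, mostly each other, so the split of reads between them is uncertain. HSPA1A read 97.1, 102 and 106 CPM with PEG and HS against 108, 104 and 109 for E8 control. Those libraries overlapped (log2 fold change -0.07, adjusted p = 0.155). HSPA1B read 154, 161 and 162 CPM with PEG and HS against 133, 134 and 139 for E8 control. It was higher without overlap (log2 fold change 0.23 ± 0.031, adjusted p = 4.7e-05, edgeR's quasi-likelihood test).

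Added together, the counts of the pair gave 251, 264 and 268 CPM with PEG and HS against 241, 238 and 248 for E8 control. The sum was higher by 0.11 ± 0.030 (SE) on the log2 scale (adjusted p = 0.0176 in the fit with the pair added), a smaller difference than that of HSPA1B alone. The ratio of HSPA1A to HSPA1B counts was 0.632, 0.633 and 0.653 in PEG and HS and 0.815, 0.775 and 0.785 in E8 control. The ratios did not overlap and differed by -0.31 on the log2 scale (exact two-sided permutation test, p = 0.10, the smallest that 3 against 3 libraries allow, and 0.20 adjusted over the 4 ratios compared). A difference between the copies and a different assignment of shared reads cannot be told apart in these counts.

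**Figure D4:**
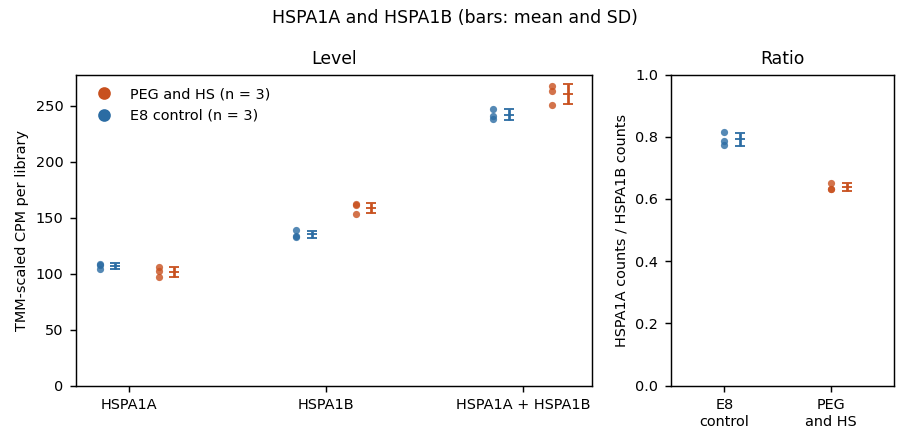
Left, TMM-scaled CPM of HSPA1A, HSPA1B and their summed counts in each library, with mean and SD. Right, the ratio of HSPA1A to HSPA1B counts, which lies between 0.632 and 0.653 in PEG and HS and between 0.775 and 0.815 in E8 control.

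The other 4 HSP70 genes did not pass the test. HSPA6, a strictly inducible HSP70 that is nearly silent without stress, had 10, 4 and 10 counts with PEG and HS against 4, 3 and 1 for E8 control. These counts overlap and are too few to resolve a difference (adjusted p = 0.102, edgeR's quasi-likelihood test), and 57.1% of its transcript words are shared, nearly all with the pseudogene HSPA7. HSPA13, an HSP70 of microsomes (46.0 ± 0.393 against 45.6 ± 2.03 CPM), and HSPA14, a ribosome-associated HSP70 (30.9 ± 2.39 against 30.5 ± 1.12 CPM), had nearly equal means. HSPA1L, a close relative of HSPA1A expressed mainly in testis, stood at 2.62 ± 0.186 against 3.01 ± 0.475 CPM (adjusted p = 0.411).

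Of the HSP110 family, HSPH1 and HSPA4 rose and HSPA4L did not pass. HSPH1 (HSP105), a nucleotide exchange factor for HSP70, was at 298 ± 11.2 against 246 ± 5.01 CPM (log2 fold change 0.28 ± 0.031, adjusted p = 7.35e-06, edgeR's quasi-likelihood test). HSPA4 (APG-2), which together with J-domain proteins and HSP70 dissolves aggregates, was at 581 ± 23.1 against 489 ± 8.17 CPM (log2 fold change 0.25 ± 0.030, adjusted p = 1.6e-05). These rises were 1.21-fold and 1.19-fold. HSPA4L was at 17.7 ± 1.35 against 17.4 ± 2.55 CPM. The count ratio of HSPH1 to HSPA8, the exchange factor to its constitutive partner, was 0.117, 0.114 and 0.120 in PEG and HS and 0.109, 0.104 and 0.108 in E8 control, higher in each PEG and HS library (log2 difference 0.13, exact two-sided permutation test, p = 0.10, the smallest possible, and 0.20 adjusted over 4 ratios).

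The small heat shock proteins, which hold unfolded proteins without using ATP, held the largest fall among the 43 genes and no gene called higher. HSPB8, which works with BAG3 in the selective autophagy of misfolded proteins (chr12:119171555-119224855), read 8.10, 7.93 and 7.92 CPM with PEG and HS against 11.9, 12.8 and 12.5 for E8 control. It was 1.55-fold lower with no overlap (log2 fold change -0.64 ± 0.068, adjusted p = 5.2e-06, edgeR's quasi-likelihood test). BAG3 itself was higher. Unnamed genes overlap HSPB8 on both strands, and the use of strand in counting is not given. HSPB1 (HSP27) was at 115 ± 5.06 against 122 ± 2.69 CPM, with libraries that overlapped and an adjusted p of 0.105, which fell to 0.022 when PEG and HS replicate 2 was left out. HSPB11, an intraflagellar transport protein in spite of its name, was at 14.1 ± 0.262 against 14.5 ± 0.738 CPM. CRYAB (alphaB-crystallin) was near the limit of detection, with 158 counts over the 6 libraries and 0.98 ± 0.195 against 0.662 ± 0.156 CPM (adjusted p = 0.192).

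The mitochondrial chaperonin consists of HSPD1 (HSP60), which forms the folding chamber, and HSPE1 (HSP10), its lid, encoded head to head on chromosome 2. Both rose. HSPD1 read 1335, 1270 and 1369 CPM with PEG and HS against 1137, 1141 and 1167 for E8 control, with no overlap (log2 fold change 0.21 ± 0.029, adjusted p = 6.65e-05, edgeR's quasi-likelihood test). HSPE1 was at 227 ± 2.68 against 201 ± 1.29 CPM (log2 fold change 0.17 ± 0.026, adjusted p = 1.78e-04). The count ratio of HSPD1 to HSPE1 was 5.85 ± 0.161 in PEG and HS and 5.70 ± 0.0586 in E8 control, a difference that did not exceed the spread of the libraries (log2 difference 0.04, exact two-sided permutation test, p = 0.30). The genes overlap on opposite strands.

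All 3 HSP90 genes rose, by little. HSP90AB1 (HSP90 beta), the constitutive cytosolic form and the most counted of the 43 genes, read 3317, 3318 and 3434 CPM with PEG and HS against 3107, 3136 and 3133 for E8 control (log2 fold change 0.10 ± 0.023, adjusted p = 0.00403, edgeR's quasi-likelihood test). HSP90AA1 (HSP90 alpha), the more inducible form, read 2614, 2524 and 2750 CPM with PEG and HS against 2291, 2331 and 2404 for E8 control (log2 fold change 0.17 ± 0.031, adjusted p = 8.31e-04). For both genes every PEG and HS library lay above every E8 control library. The count ratio of HSP90AA1 to HSP90AB1 was 0.783 ± 0.0204 in PEG and HS and 0.749 ± 0.0159 in E8 control, and its libraries overlapped (log2 difference 0.06, exact two-sided permutation test, p = 0.20). TRAP1, the HSP90 of mitochondria, was at 185 ± 0.989 against 172 ± 3.54 CPM (log2 fold change 0.10, adjusted p = 0.0145). Its call was lost without PEG and HS replicate 1 or E8 control replicate 1, with adjusted p up to 0.0878. Of their transcript words, 35.7% of HSP90AB1's and 26.4% of HSP90AA1's occur in transcripts of other genes, most often a pseudogene.

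All 5 HSP90 cochaperones rose. CHORDC1 (chr11:90200429-90223077), a cochaperone that binds HSP90 through its CHORD domains, had the largest called rise and read 113, 108 and 103 CPM with PEG and HS against 87.5, 81.3 and 91.8 for E8 control. The media did not overlap, at 108 ± 5.44 against 86.9 ± 5.27 CPM (log2 fold change 0.31 ± 0.045, 1.24-fold, adjusted p = 1.02e-04, edgeR's quasi-likelihood test). FKBP4 (FKBP52), an immunophilin of the steroid receptor complex, was at 524 ± 9.19 against 427 ± 3.06 CPM (log2 fold change 0.30 ± 0.025) and had the smallest adjusted p of the 43 genes, 3.67e-07. AHSA1 (AHA1), the activator of the HSP90 ATPase, was at 147 ± 4.80 against 133 ± 2.64 CPM (log2 fold change 0.14, adjusted p = 0.00369). STIP1 (HOP), which bridges HSP70 and HSP90, was at 395 ± 5.52 against 366 ± 3.29 CPM (log2 fold change 0.11, adjusted p = 0.00485). PTGES3 (p23), which holds HSP90 in its closed state, read 572, 548 and 564 CPM with PEG and HS against 516, 503 and 518 for E8 control, again without overlap (log2 fold change 0.13, adjusted p = 0.0015).

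Of the 11 J-domain proteins, 5 were higher and 6 did not pass (45.5% called, beside 25.3% of all genes). At the levels of these genes, 30.2% (10 to 100 CPM) and 39.4% (100 to 1000 CPM) of all genes were called. All 4 listed DNAJA genes were among the higher ones. DNAJA1, a main partner of cytosolic HSP70, was at 315 ± 8.67 against 293 ± 3.4 CPM (log2 fold change 0.11, adjusted p = 0.0109, edgeR's quasi-likelihood test), DNAJA2 at 128 ± 6.02 against 115 ± 3.98 CPM (0.15, adjusted p = 0.00799), and the mitochondrial DNAJA3 at 73.4 ± 0.736 against 67.0 ± 1.62 CPM (0.13, adjusted p = 0.00775). DNAJA4 at 11.9 ± 1.16 against 9.89 ± 0.803 CPM (0.26, adjusted p = 0.033) and DNAJB4 at 18.6 ± 0.592 against 16.6 ± 0.677 CPM (0.17, adjusted p = 0.0483) were counted least and were the least stable calls. The DNAJB4 call was lost in 12 of the 14 alternative fits, with adjusted p up to 0.173: with DESeq2, RLE or upper-quartile scaling, no filter, filterByExpr, the replicate block and each library left out. That of DNAJA4 was lost in 4 such fits and with DESeq2, with adjusted p up to 0.142. The DNAJA1 call was lost without PEG and HS replicate 1 (adjusted p = 0.0507).

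DNAJB1 (HSP40), the inducible J-domain partner of HSP70, was at 104 ± 0.774 against 99.3 ± 1.68 CPM, higher in each PEG and HS library but not called (log2 fold change 0.07, adjusted p = 0.115, edgeR's quasi-likelihood test). DNAJC3 (p58IPK), which acts in the endoplasmic reticulum, was at 40.4 ± 1.5 against 37.3 ± 1.46 CPM, likewise without overlap (adjusted p = 0.0751). DNAJB5 was at 46.3 ± 0.251 against 47.7 ± 0.711 CPM, lower in each PEG and HS library (adjusted p = 0.454). The means of DNAJB2, a neuronal J-domain protein (36.1 ± 1.78 against 35.4 ± 1.42 CPM), DNAJB6, a suppressor of polyglutamine aggregation (329 ± 10.5 against 333 ± 7.97 CPM), and DNAJC7, which binds both HSP70 and HSP90 (125 ± 3.37 against 124 ± 2.42 CPM), lay within the spread of their libraries.

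Of the 3 BAG proteins, which release nucleotide from HSP70, BAG3 was higher. It was at 30.8 ± 0.990 against 25.1 ± 0.699 CPM, with no overlap (log2 fold change 0.29 ± 0.048, 1.23-fold, adjusted p = 3.15e-04, edgeR's quasi-likelihood test). BAG1, which links HSP70 to the proteasome, was at 43.6 ± 0.995 against 43.5 ± 2.22 CPM (adjusted p = 0.987). BAG2, an inhibitor of the ubiquitin ligase CHIP, was at 17.0 ± 0.418 against 16.9 ± 1.28 CPM (adjusted p = 0.999).

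Levels of different genes were compared per length, as RPKM, here TMM-scaled CPM divided by the kilobases in the union of a gene's GENCODE 44 exons. In E8 control the highest level of the 43 genes was that of HSP90AB1, at 1049 RPKM. HSPA8 (473 RPKM) and HSP90AA1 (459 RPKM) followed, and then PTGES3 and HSPD1 (both 151 RPKM). In PEG and HS the same 5 genes stood at 1126, 524, 516, 165 and 174 RPKM. The inducible HSPA1A (44.5 RPKM) and HSPA1B (53.7 RPKM) stood far below the constitutive HSPA8 in E8 control. This order depends on the length used. With the length of the canonical transcript in place of the exon union, HSP90AB1 stood at 1223, HSPA8 at 1013, HSP90AA1 at 726, HSPD1 at 511 and PTGES3 at 270 RPKM in E8 control, and HSPE1 (362 RPKM) passed PTGES3.

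The wider chaperone network was taken from 8 lists written from general knowledge, 118 genes of which 116 could be tested. Of these, 22 were higher and 8 lower (25.9% called), close to the 25.3% of all genes, with a median log2 fold change of 0.02. Without E8 control replicate 1 only 12 were called higher, and without PEG and HS replicate 1 only 3 were called lower. Among 12 chaperones of the endoplasmic reticulum 7 were higher (58.3%, beside 12.2% of all genes). Most of these 12 were above 100 CPM, and 39.4% of all genes at 100 to 1000 CPM were called, in either direction. SDF2L1, which assists the HSP70 there, had the largest called rise of that list (19.1 ± 0.255 against 15.8 ± 1.24 CPM, log2 fold change 0.26, adjusted p = 0.00615, edgeR's quasi-likelihood test). HSPA5 (BiP) and HSP90B1 (GRP94), the HSP70 and HSP90 of that compartment, were named after their values were seen. HSPA5 was at 812 ± 13.3 against 711 ± 3.56 CPM (log2 fold change 0.19, adjusted p = 2.5e-05) and HSP90B1 at 1153 ± 35.4 against 1015 ± 10.6 CPM (0.18, adjusted p = 1.01e-04).

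TRiC, the cytosolic chaperonin, and prefoldin together fold actin and tubulin. Of their 14 genes, 6 were higher (42.9%, beside 12.2% of all genes). All 6 were TRiC subunits, and no prefoldin gene was called. Of the prefoldin genes, PFDN1 was higher and PFDN5 lower in each PEG and HS library. The TRiC subunits lay at 100 to 1000 CPM, where 39.4% of all genes were called, in either direction. TCP1 changed most among those called (365 ± 9.77 against 338 ± 4.86 CPM, log2 fold change 0.11, adjusted p = 0.00793, edgeR's quasi-likelihood test). Of 23 other HSP90 cochaperones, 3 were higher (13%, close to the 12.2% of all genes), led by the cyclophilin PPID (0.16, adjusted p = 0.00516). Of 33 other J-domain proteins, 4 were higher and 2 lower (18.2% called, beside 25.3% of all genes). DNAJC25 (0.33, adjusted p = 0.00217) and DNAJB9 (-0.22, adjusted p = 0.0311) were at the extremes of those called. Among 9 genes of HSP70 exchange and regulation, the mitochondrial exchange factor GRPEL2 was called (0.17, adjusted p = 0.00584). Among 8 mitochondrial proteases and disaggregases, CLPB was called, lower (-0.15, adjusted p = 0.0356). Of 6 tested genes among other small heat shock proteins and factors, HSF4 was called, lower (-2.24, adjusted p = 0.0386). That call rests on 24 counts in all, 2, 0 and 2 with PEG and HS against 7, 7 and 6 for E8 control. The calls of DNAJB9, CLPB and HSF4 were each lost in several other fits.

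The last list held 11 further genes that respond to heat or to proteotoxic stress, outside the families above. Here 4 were lower and 1 was higher (45.5% called, beside 25.3% of all genes). CLU (clusterin), a secreted chaperone of the extracellular space, had the largest fall, at 199.6 ± 3.0 against 382 ± 14.8 CPM (log2 fold change -0.94 ± 0.031, 1.91-fold lower, adjusted p = 7.82e-12, edgeR's quasi-likelihood test). UBB, a polyubiquitin gene (417 ± 21.1 against 459 ± 19.1 CPM), SQSTM1, the autophagy receptor p62 (124 ± 3.22 against 137 ± 2.52 CPM), and RGS2, a regulator of G protein signalling (11.4 ± 0.689 against 13.3 ± 0.355 CPM), also fell. SERPINH1 (HSP47), the collagen chaperone, was the gene that rose, at 635 ± 6.68 against 547 ± 10.8 CPM (0.22 ± 0.025, adjusted p = 1.26e-05).

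**Figure D5:**
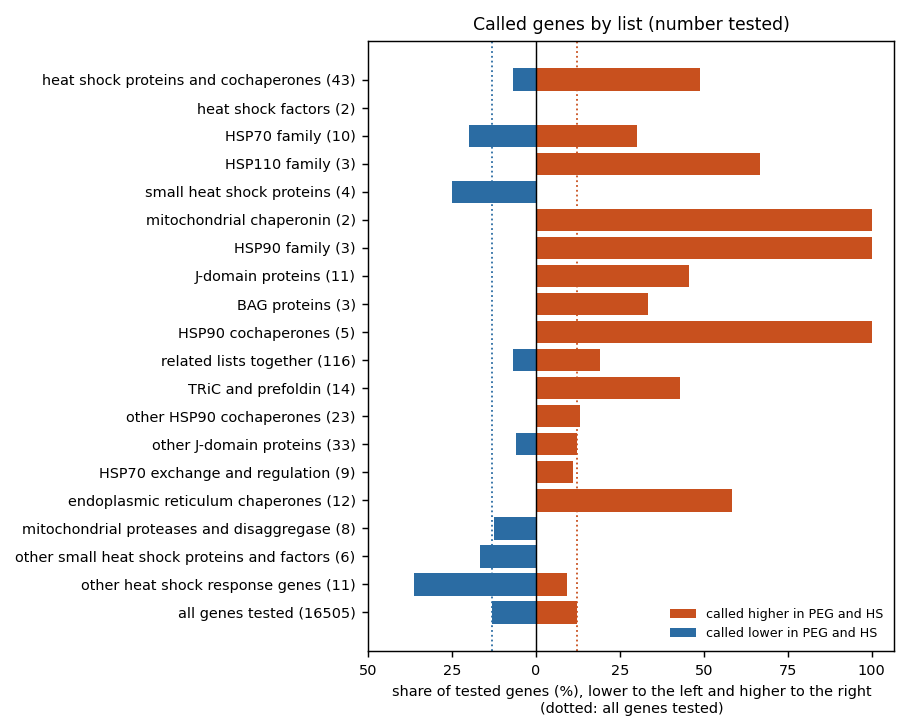
Bars give the share of tested genes called higher (to the right) and lower (to the left) in PEG and HS, for the 43 genes, their families and the related lists, with the number tested in brackets and dotted lines at the share over all genes (12.2% higher, 13.1% lower). The HSP90 family, its 5 cochaperones and the mitochondrial chaperonin stand at 100% higher, on 3, 5 and 2 genes, and the bar of the other heat shock response genes lies mostly to the left.

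Markers of cell state also differed between the media. The summed level of 11 pluripotency markers was 10605 to 10794 CPM with PEG and HS against 10677 to 10841 CPM for E8 control. Each library held the labelled pluripotent markers at these levels. Of the 11 markers, 5 were higher and 4 lower (81.8% called, beside 25.3% of all genes). The close sums therefore hide opposite changes, such as those of NANOG (log2 fold change 0.55) and SOX2 (-0.59). The summed level of 10 neuroectoderm markers was 42.1 to 47.2 CPM with PEG and HS against 160 to 167 CPM for E8 control, and 8 of the 10 were lower. OTX2 stood at 18.6 ± 1.31 against 79.4 ± 1.55 CPM. The summed levels were 5.47 to 5.66 against 6.19 to 7.40 CPM for 6 markers of primitive streak and mesoderm (2 lower), 3.11 to 3.32 against 4.02 to 4.67 CPM for 6 of endoderm (4 tested, none called at adjusted p under 0.05 by edgeR), and 2.87 to 3.71 against 7.97 to 8.80 CPM for 6 of trophectoderm and amnion (5 tested, 1 lower). TFAP2A was the lower marker of the last list and held most of its E8 control sum (0.603 ± 0.269 against 6.00 ± 0.230 CPM). GABRP of that list was higher in each PEG and HS library but not called (2.29 ± 0.0996 against 1.69 ± 0.214 CPM). TBX6 held most of the mesoderm sum and was lower (3.02 ± 0.161 against 4.19 ± 0.424 CPM). The other lower marker of that list, HAND1, had only 1, 0 and 0 counts with PEG and HS against 6, 7 and 2 for E8 control. In the same list MIXL1 was higher without overlap, and not called (1.95 ± 0.207 against 1.42 ± 0.286 CPM). SOX17, GATA4 and CDX2 had 2, 9 and 3 counts over all 6 libraries. Mitochondrial genes took 4.54% to 5.02% of counts with PEG and HS against 5.02% to 5.16% for E8 control. The part of these differences in the levels of HSPB8, HSPA2, HSPA12A and the higher chaperones was not tested.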

How the data were processed

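RNA of 6 samples was sequenced by the authors from stranded mRNA libraries. Reads were trimmed with Trim Galore 0.6.7 and mapped to GRCh38 with STAR 2.6.1. The deposited values are raw counts per gene and library, without normalization. The counting tool, its use of strand and its handling of reads with several matches are not given in the sources used here. Samples were grouped by the treatment given in their labels.

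Of 19977 Ensembl identifiers, 19916 matched GENCODE 44. Genes with at least 10 counts over the 6 libraries were scaled with TMM. The media were compared by the quasi-likelihood test of edgeR 4.0.16 (R 4.3.3) without covariates, and p-values were adjusted by Benjamini-Hochberg over 16505 genes. The SE was obtained by dividing the absolute log2 fold change by the root of F. The spread between libraries of a medium, which may be technical, was low (edgeR's common coefficient of variation 3.12%), and small differences are resolved in well-counted genes only. No pair of replicates was as alike as counting noise alone allows (chi-square 2.58 to 3.52 per df), and all 6 were kept as separate samples. Ratios of 4 gene pairs were compared by an exact two-sided permutation test. Shared sequence is the share of 31-base words of a gene's transcripts found in transcripts of other genes. The scripts were tested on simulated data.

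The genes, the related lists and the tests were chosen with earlier results of these data known. Values of each library are given for HSF1, HSF2, the 5 genes highest per length, called genes with an absolute log2 fold change of at least 0.3, and HSPA1A with HSPA1B. The few counts of HSPA6 and the other ratios are also given. From related lists, the called gene with the largest change in each direction is named, and HSPA5, HSP90B1, UBB, SQSTM1, RGS2 and the markers named singly were chosen after their values were seen. Promoter windows are RefSeq's. Protein sequences were not used here. The alternatives were DESeq2 1.42.0, limma-voom (limma 3.58.1), RLE, upper-quartile and library size scaling, no filter and filterByExpr, a replicate block, each library left out, a test against a 1.2-fold change, and HSPA1A with HSPA1B added. Canonical transcript length was added after the data were seen.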

Additional observations from a re-analysis of the deposited data

How the results depend on the processing

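Of the 24 called genes, 19 kept their call in all 14 alternatives other than the 1.2-fold limit, 5 lost it in at least 1 (HSPA9, TRAP1, DNAJA1, DNAJA4 and DNAJB4), HSF2 and HSPB1 gained one when a PEG and HS library was left out, and no direction was reversed. Tested against a 1.2-fold change with edgeR (glmTreat), 0 genes were higher (2 at an unadjusted p under 0.05, and 19 under DESeq2 without that limit) and HSPA2 and HSPB8 were lower. Under that limit 0 related genes were higher (0 at an unadjusted p under 0.05) and 1 was lower, and over all genes 215 were higher and 653 lower. DESeq2 called 4 related genes lower in place of 8. With each library left out in turn, the calls numbered 17 to 20 higher and 3 to 4 lower among the 43 genes, and 12 to 25 higher and 3 to 6 lower among the related genes, and the median log2 fold change of the 43 genes was 0.088 (without PEG and HS replicate 3) to 0.111. Leaving a library out also reduces the samples, and the cause was not tested further. No scaling moved the median of all genes beyond -0.0076 to 0.0121. The replicate numbers did not pair the libraries (same-number correlations of deviations 0.031 to 0.043 over 13557 genes). No library correlated best with its own number, apart from a tie at 0.043 for PEG and HS replicate 3. With the replicate block 20 of the 43 genes were higher and 3 lower, and 24 related genes were higher and 7 lower. Genes with few counts, such as HSPA6 and CRYAB, are limited by depth.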
